A study of Mus musculus with 12 samples.

Results

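The G2 and mitosis genes are a module of 38 genes whose products carry a cell from late G2 through chromosome segregation to the separation of the daughter cells. They were chosen by gene symbol, with no threshold on any measured value, from the 55487 genes of the count table. Earlier results of these data were known when the members were chosen. All 38 were found, and all 38 were among the 19182 genes that passed the filter on low counts. They comprise Cdk1 with its cyclins and activating phosphatases (*Cdk1*, *Ccna2*, *Ccnb1*, *Ccnb2*, *Cdc25b*, *Cdc25c*), factors that trigger anaphase and mitotic exit (*Cdc20*, *Ube2c*) and the spindle assembly checkpoint (*Bub1*, *Bub1b*, *Mad2l1*, *Ttk*). Further members belong to the centromere and kinetochore (*Cenpa*, *Cenpe*, *Cenpf*, *Ndc80*, *Nuf2*, *Spc25*), the chromosomal passenger complex (*Aurkb*, *Birc5*, *Incenp*, *Cdca8*) and the spindle (*Plk1*, *Aurka*, *Tpx2*, *Kif11*, *Kif2c*, *Nusap1*, *Hmmr*). The last serve cytokinesis (*Kif4*, *Kif20a*, *Kif23*, *Prc1*, *Racgap1*, *Ect2*, *Anln*) and chromosome structure (*Top2a*, *Mki67*).

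RNA was sequenced from BV2 cells, a mouse microglial line immortalised with the viral oncogenes v-raf and v-myc, in a layout that crossed glucose with CD200Fc. CD200Fc joins the ligand CD200 to an antibody Fc part and binds CD200R1, a receptor that restrains myeloid cells. The groups, each of 3 libraries, were high glucose with 50 ng/mL CD200Fc (HG+CD200Fc), high glucose alone (HG), normal glucose with 50 ng/mL CD200Fc (NG+CD200Fc) and normal glucose alone (NG). All groups share the line, and no further allele or transgene is listed for any of them. Neither an Fc part alone nor an osmotic control was among the groups. Glucose concentrations and hours of exposure are not stated in the labels. Nor do the labels state that a group's libraries were separate cultures, so p-values describe the spread between these libraries, which could be technical.

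Most of these genes are transcribed in a wave from late S phase into mitosis, and their RNAs and proteins are cleared as the cell returns to G1. In a growing culture their level therefore follows how many cells are close to division. In resting cells the DREAM complex, built on the MuvB core, holds these genes off, and in cycling cells MuvB joins B-Myb and then FoxM1 to switch them on. Microglia of the adult brain divide slowly, while BV2 cells divide continuously in culture.

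Libraries held 2.15e+07 to 3.19e+07 counts. The lowest count of any member in any library was 265, for *Cdc25c*, where counting error alone is 6.14%. Ribosomal RNA genes took 1.49% of the counts of HG replicate 2 and no more than 0.119% of any other library. The labels conflict, because the source is BV2 while a protocol describes retinal dissection and the sorting of GFP-positive cells. All 12 microglia and macrophage markers were detected, and they summed to 2760 to 2890 CPM in HG+CD200Fc, 3170 to 3500 in HG, 2920 to 3150 in NG+CD200Fc and 3120 to 3210 in NG, where CPM is the count relative to the library's total. *Csf1r* was the most abundant of them at 878 to 1020 CPM, while *P2ry12* (0.653 to 2.60 CPM), *Cx3cr1* (0.72 to 4.17 CPM) and *Tmem119* (12.5 to 16.7 CPM) were low. The photoreceptor regulator *Crx* was at 0 in all 12 libraries, and the 10 photoreceptor markers summed to 31.8 to 43.1 CPM, nearly all of it *Pde6b*. Macroglial markers summed to 141 to 169 CPM, nearly all of it *Glul*, with the astrocyte channel gene *Aqp4* at most 0.0371 CPM. Neuron markers summed to 1.96 to 3.78 CPM, endothelial and mural markers to 8.94 to 14.6 CPM and lymphocyte markers to 1.08 to 2.96 CPM. The part of these shifts in the results was not tested.

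The summed level of the module was lowest in HG, with HG+CD200Fc closer to both NG groups. In CPM after TMM scaling, the 38 members summed to 5772, 5582 and 5774 in HG+CD200Fc libraries, 4720, 4940 and 4690 in HG, 5682, 5848 and 5739.7 in NG+CD200Fc and 5705, 5737 and 5718 in NG. All 3 HG libraries lay below all 9 others, and HG+CD200Fc replicate 2 was the lowest of those 9. *Mki67* alone made up a large part of that sum. Without it the sums were 4255 to 4493 CPM in HG+CD200Fc, 3748 to 3861 in HG, 4522 to 4655 in NG+CD200Fc and 4585 to 4654 in NG, so that HG+CD200Fc libraries lay between those of HG and those of both NG groups. Taken gene by gene, the median member's log2 ratio to the NG mean averaged -0.10 ± 0.079 in HG+CD200Fc, -0.31 ± 0.023 in HG and -0.020 ± 0.018 in NG+CD200Fc (SD over libraries, n = 3 each). In bulk RNA a smaller share of cells in G2 or mitosis and less of these RNAs in each such cell cannot be told apart.

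**Figure D1:**
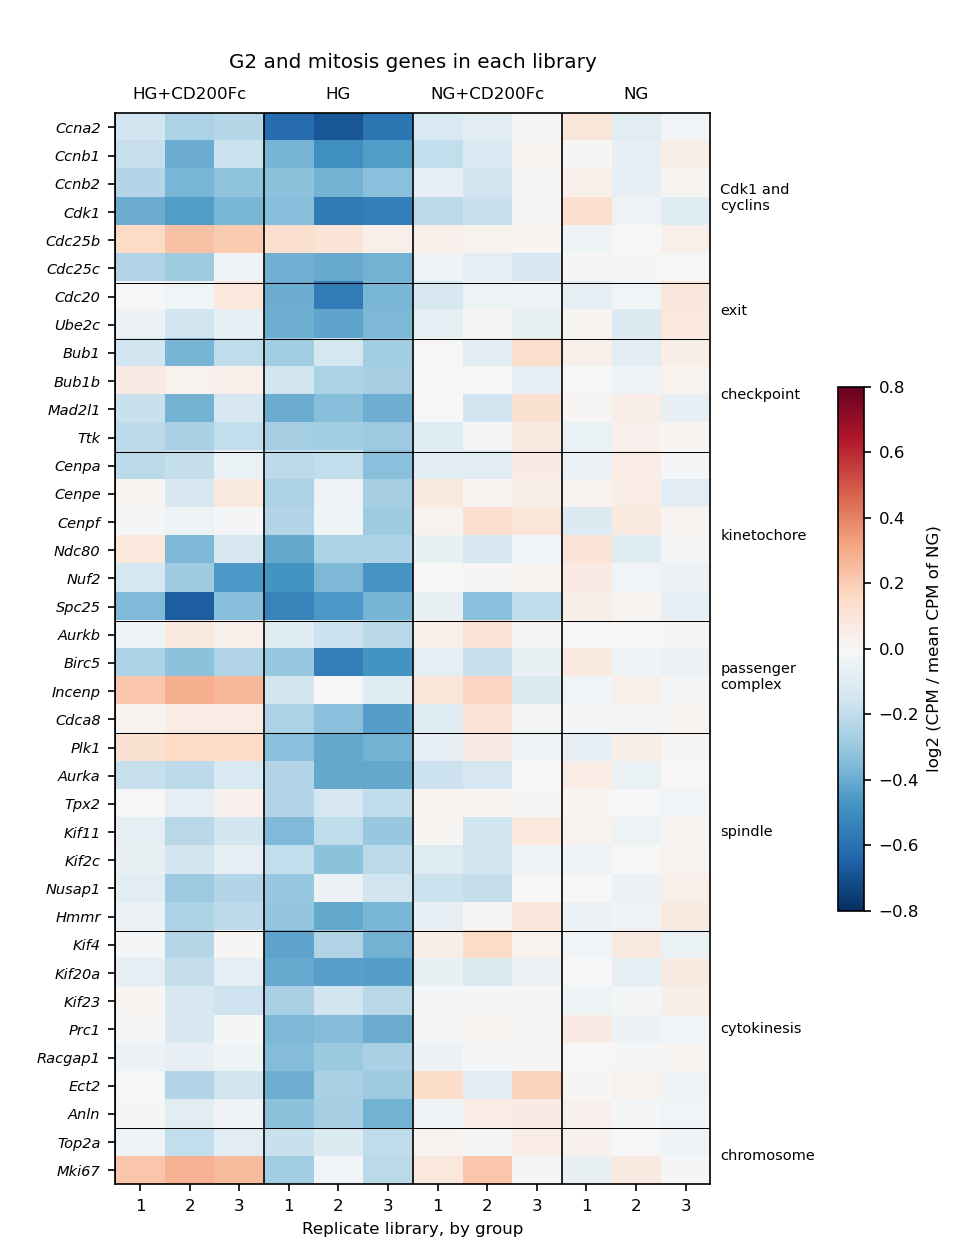
Level of each of the 38 G2 and mitosis genes in each of the 12 libraries, as the log2 ratio of its CPM to the mean CPM of the 3 NG libraries (colour scale), with columns grouped by condition and genes grouped by role. The HG columns are mostly blue, with medians per library of -0.33 to -0.29, and *Cdc25b*, *Incenp*, *Mki67*, *Plk1*, *Bub1b* and *Cdca8* are above the NG mean in all 3 HG+CD200Fc columns.

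The promoters of the members are shown as a description, and whether their motifs bear on the levels in HG was not tested. Such promoters are known to carry the cell cycle genes homology region (CHR), which the MuvB subunit LIN54 binds, and the CCAAT box, which the factor NF-Y binds. RefSeq promoter windows on GRCm38.p6, from 250 bases before to 50 bases after the transcript start, were matched by symbol for 32 of the 38 members, and a RefSeq start can differ from the gene end of the annotation used below. The CHR, searched as TTTGAA or TTCGAA on both strands, was in 26 of the 32 (81.2%), against 21.7% of the 27025 genes with a window. CCAAT, searched on both strands, was in 25 of 32 (78.1%), against 41.1% of all genes, and both motifs were in 23 of 32 (71.9%), against 8.61%. A match describes the letters in these windows and is not a shown binding site. The windows of *Birc5*, *Ccnb1*, *Cenpe*, *Mad2l1*, *Nuf2* and *Nusap1* held neither CHR form searched, and other forms were not searched. The 100 bases before the start are given for 5 members that hold both motifs there. They are also given for *Ccnb1*, which holds CCAAT but neither CHR form searched. They run 5′ to 3′ on the strand of the gene, with CHR and CCAAT matches of either orientation in capitals.
Cdc20 (chr4:118437344-118437443, minus strand): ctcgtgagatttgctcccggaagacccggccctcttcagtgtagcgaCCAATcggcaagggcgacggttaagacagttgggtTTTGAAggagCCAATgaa
Cdk1 (chr10:69352913-69353012, minus strand): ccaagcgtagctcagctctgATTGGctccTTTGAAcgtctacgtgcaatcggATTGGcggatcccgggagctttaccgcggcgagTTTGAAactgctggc
Ube2c (chr2:164769829-164769928, plus strand): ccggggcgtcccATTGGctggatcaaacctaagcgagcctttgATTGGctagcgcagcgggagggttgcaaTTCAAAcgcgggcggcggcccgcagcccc
Prc1 (chr7:80294376-80294475, plus strand): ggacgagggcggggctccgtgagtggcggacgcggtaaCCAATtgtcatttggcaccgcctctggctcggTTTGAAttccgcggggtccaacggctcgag
Kif11 (chr19:37376282-37376381, plus strand): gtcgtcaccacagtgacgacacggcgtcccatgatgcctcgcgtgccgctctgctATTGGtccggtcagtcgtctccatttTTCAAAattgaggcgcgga
Ccnb1 (chr13:100786487-100786586, minus strand): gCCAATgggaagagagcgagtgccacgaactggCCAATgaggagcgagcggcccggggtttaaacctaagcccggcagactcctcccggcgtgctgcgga

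In *Cdc20* the CHR began 18 bases before the start, with CCAAT matches at 53 and 8 bases before it, and in *Cdk1* there were CHR matches at 71 and 15 bases before the start. *Ube2c*, *Prc1* and *Kif11* had the CHR at 29, 30 and 19 bases before the start. Over the 32 members CHR matches gathered at the start: in 14 (43.8%) a match began within the first 25 bases from the start onward, against 1.68% of all genes. CCAAT lay upstream, with a match that began between 75 and 51 bases before the start in 13 members (40.6%), against 8.21% of all genes.

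**Figure D2:**
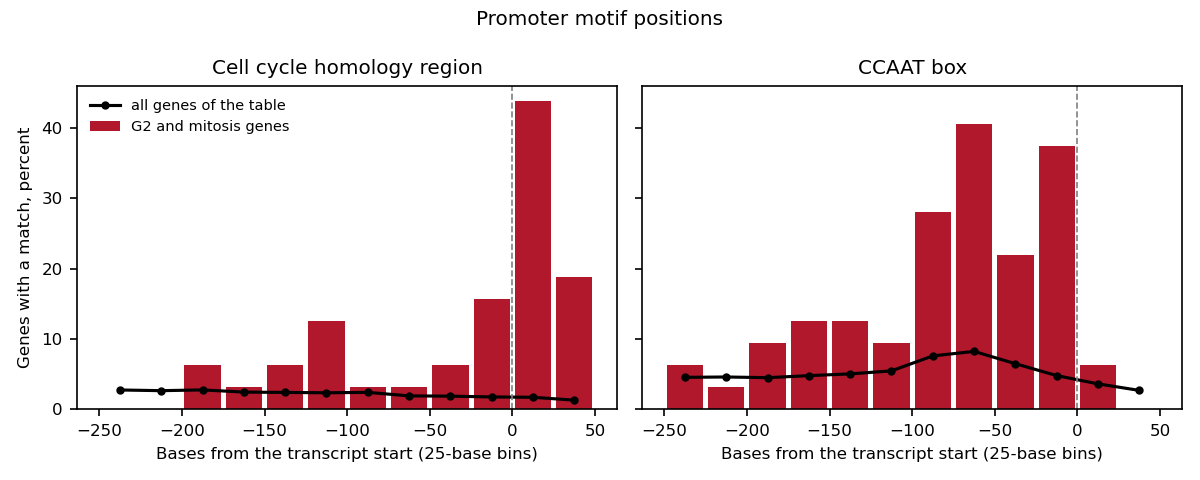
Share of genes (percent) with a motif match that begins in each 25-base bin from 250 bases before to 50 bases after the transcript start, for the CHR (left) and CCAAT (right); red bars are the 32 members with a promoter window and the black line all 27025 genes. Members have their highest share in the bin just after the start for the CHR (43.8%, against 1.68% of all genes), and for CCAAT in the bin from 75 to 51 bases before it (40.6%, against 8.21%) and the last bin before it (37.5%, against 4.77%).

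HG was compared with NG to ask what high glucose alone did to these genes, and the module was lower in HG almost throughout. Of the 38 members 35 passed the test as lower and 0 as higher, where 12.9% of all genes tested were lower and 11.7% higher (edgeR quasi-likelihood test over 19182 genes, adjusted p under 0.05). Members averaged 14.0 CPM (*Cdc25c*) to 1136 CPM (*Mki67*) over all libraries, and among the 8318 genes at or above the lowest member's mean CPM 25.6% were lower. The median log2 fold change of the members was -0.32, against 0.021 over all genes, and among those that passed *Aurkb* fell by the least and *Ccna2* by the most (-0.16 and -0.62). The 3 members that did not pass were *Cdc25b* (0.09 ± 0.054 SE, adjusted p = 0.235), *Incenp* (-0.08 ± 0.061, adjusted p = 0.379) and *Nusap1* (-0.17 ± 0.073, adjusted p = 0.0963). HG libraries lay wholly below NG libraries for 33 members, against 19.8% of all genes, and wholly above them for 1, *Cdc25b*, against 19.9%. Without HG replicate 2, the library rich in ribosomal RNA, 35 members passed, and leaving out each of the 12 libraries in turn gave 29 to 36.

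HG+CD200Fc was compared with HG to ask what the ligand did to these genes in high glucose, and where members passed they were higher. Here 18 of 38 members were higher and 0 lower, where 9.46% of all genes were higher and 8.3% lower, and 20.1% were higher among the 8318 genes at or above the lowest member's mean. The median log2 fold change was 0.18, against -0.021 over all genes, and the increases of the 18 ran from 13.0% for *Tpx2* to 43.6% for *Plk1*. By role, those that passed were both exit factors, 5 of 7 cytokinesis genes, 3 of 4 passenger complex genes, 4 of 7 spindle genes, 2 of 6 of Cdk1 and its partners, 1 of 4 checkpoint genes, 1 of 2 chromosome genes and 0 of 6 kinetochore genes. The difference between roles was not itself tested. HG+CD200Fc libraries lay wholly above HG libraries for 22 members, against 15.3% of all genes, and wholly below them for 0, against 16.0%. This comparison and the one before it share the 3 HG libraries, so they are not independent, and their values are set side by side for each gene. Without HG replicate 2 the count was 17, and over the 12 libraries left out in turn it was 13 to 19, with 13 without HG replicate 3 and 13 without HG+CD200Fc replicate 3.

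**Figure D3:**
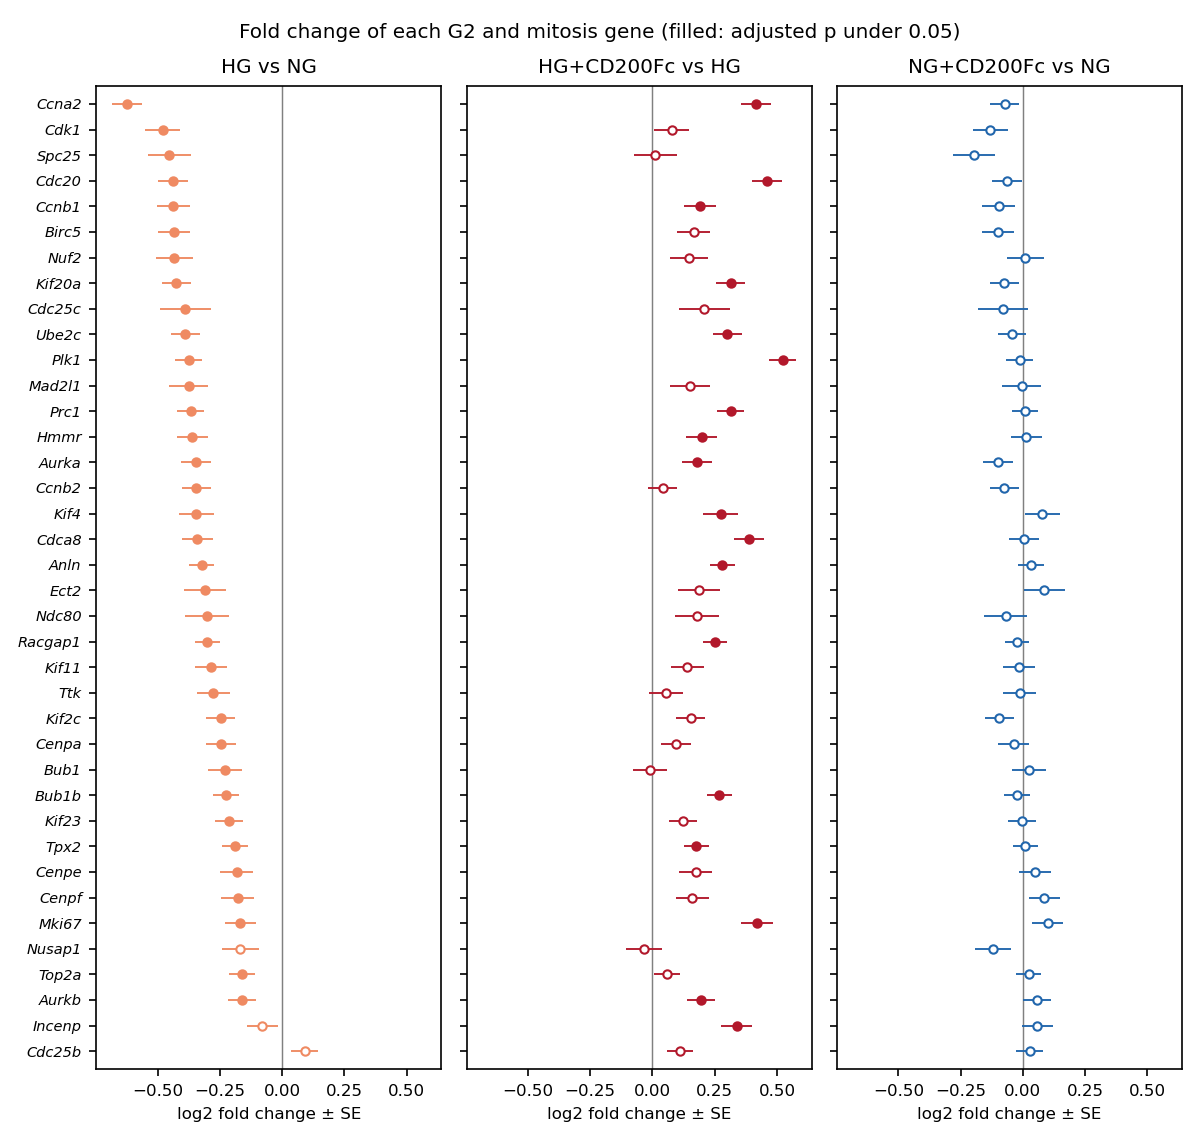
Log2 fold change with its standard error for each of the 38 members in HG against NG (left), HG+CD200Fc against HG (middle) and NG+CD200Fc against NG (right), ordered by the left panel; filled points have an adjusted p under 0.05. Filled points number 35 on the left, all below 0, 18 in the middle, all above 0, and 0 on the right.

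Cdk1 is the kinase whose activation starts mitosis, and cyclin A2 serves it and Cdk2 in S phase and G2. Gene coordinates are those of GENCODE M21 on GRCm38. *Ccna2* (ENSMUSG00000027715) lies at chr3:36564865-36572150 on the minus strand. Its level was 102, 94.8 and 96.2 CPM in HG+CD200Fc libraries, 73.9, 70.3 and 75.5 in HG, 104, 106 and 112 in NG+CD200Fc and 121, 106 and 111 in NG. HG libraries were the lowest of all without overlap, and HG+CD200Fc libraries lay between those of HG and those of both NG groups. *Ccna2* fell by 35.1% in HG, a log2 fold change of -0.62 ± 0.060 (adjusted p = 1.52e-08), the largest decrease among the members. *Ccna2* rose with CD200Fc in high glucose (0.41 ± 0.060, adjusted p = 1.18e-05). *Cdk1* (ENSMUSG00000019942) lies at chr10:69335146-69352938 on the minus strand. Its level was 81.6, 78.8 and 83.6 CPM in HG+CD200Fc libraries, 85.0, 72.7 and 73.5 in HG, 92.9, 95.0 and 107 in NG+CD200Fc and 117, 105 and 101 in NG. HG+CD200Fc libraries lay within the range of HG, and both lay below both NG groups. *Cdk1* fell in HG (-0.48 ± 0.070, adjusted p = 1.11e-05). *Cdk1* did not pass with CD200Fc in high glucose (0.08 ± 0.071, adjusted p = 0.528, 95% interval -0.06 to 0.22).

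Cyclin B1 accumulates in G2 and is destroyed at anaphase, and cyclin B2 is its Golgi-associated relative. *Ccnb1* (ENSMUSG00000041431) lies at chr13:100778650-100786570 on the minus strand. Its level was 123, 107 and 124 CPM in HG+CD200Fc libraries, 108, 99.6 and 103 in HG, 122, 128 and 142 in NG+CD200Fc and 141, 134 and 145 in NG. HG lay wholly below NG, and 1 HG+CD200Fc library, replicate 2, lay within the range of HG. *Ccnb1* fell in HG (-0.44 ± 0.066, adjusted p = 1.61e-05) and rose with CD200Fc in high glucose (0.19 ± 0.066, adjusted p = 0.043). The second call was lost without any one of HG+CD200Fc replicates 1 and 3, HG replicates 2 and 3 or NG replicates 2 and 3 (0.155 to 0.197). *Ccnb2* (ENSMUSG00000032218) lies at chr9:70407692-70421547 on the minus strand. Its level was 82.7, 75.8 and 78.0 CPM in HG+CD200Fc libraries, 77.5, 75.1 and 77.5 in HG, 93.2, 87.7 and 96.8 in NG+CD200Fc and 100.4, 93.2 and 98.7 in NG. HG+CD200Fc overlapped HG, and both lay below both NG groups. *Ccnb2* fell in HG (-0.35 ± 0.058, adjusted p = 7.36e-05) and did not pass with CD200Fc in high glucose (0.04 ± 0.059, adjusted p = 0.719).

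The phosphatases Cdc25b and Cdc25c remove the phosphates that keep Cdk1 inactive. *Cdc25c* had the lowest level per length of all members, at 2.42 CPM per kb of exon in HG and 3.17 in NG. *Cdc25c* fell in HG (-0.39 ± 0.10, adjusted p = 0.00559) and did not pass with CD200Fc (0.21 ± 0.10, adjusted p = 0.184). *Cdc25b* (ENSMUSG00000027330) lies at chr2:131186949-131198497 on the plus strand. Its level was 109, 115 and 113 CPM in HG+CD200Fc libraries, 106, 105 and 100.3 in HG, 100.4, 99.6 and 98.6 in NG+CD200Fc and 95.3, 97.2 and 100.2 in NG. HG lay barely above NG, and all 3 HG+CD200Fc libraries lay above the other 9. *Cdc25b* had the only positive fold change of a member in HG (0.09 ± 0.054, adjusted p = 0.235), whose sign turned once a trend with exon length and GC content was taken out (-0.0071), and with CD200Fc it did not pass (0.11 ± 0.054, adjusted p = 0.174).

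**Figure D4:**
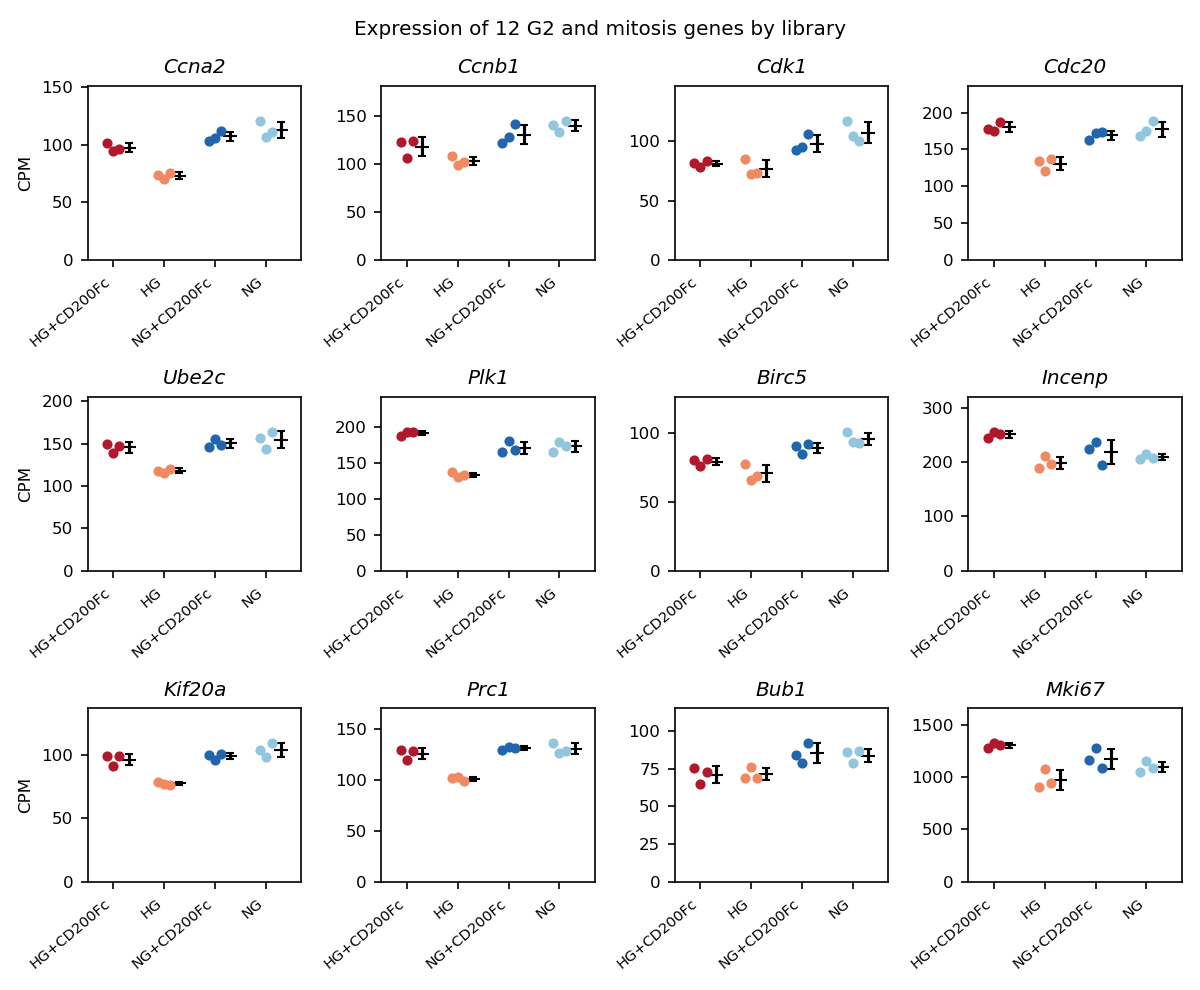
CPM of 12 members in each library (points; 3 per group) with the group mean and SD (black), from an axis that starts at 0. *Ccna2*, *Cdc20*, *Ube2c*, *Plk1*, *Kif20a* and *Prc1* have their 3 lowest points in HG, while *Cdk1* and *Bub1* stay near the HG level in HG+CD200Fc. *Plk1*, *Incenp* and *Mki67* have their 3 highest points in HG+CD200Fc.

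Cdc20 activates the anaphase-promoting complex, the ubiquitin ligase that destroys securin and cyclin B, and Ube2c hands it ubiquitin. *Cdc20* (ENSMUSG00000006398) lies at chr4:118432901-118437352 on the minus strand. Its level was 177, 175 and 188 CPM in HG+CD200Fc libraries, 135, 120.1 and 137 in HG, 162, 172 and 174 in NG+CD200Fc and 168, 174 and 189 in NG. HG lay below every other library, and HG+CD200Fc reached the range of NG. *Cdc20* fell by 26.2% in HG (-0.44 ± 0.060, adjusted p = 4.18e-06). *Cdc20* was 1.38-fold higher with CD200Fc in high glucose (0.46 ± 0.060, adjusted p = 2.64e-06). *Ube2c* (ENSMUSG00000001403) lies at chr2:164769898-164778822 on the plus strand. Its level was 150.2, 139 and 148 CPM in HG+CD200Fc libraries, 118, 116 and 121 in HG, 146, 156 and 148 in NG+CD200Fc and 157, 144 and 164 in NG, again with HG below all others. *Ube2c* fell in HG (-0.39 ± 0.057, adjusted p = 1.29e-05) and rose with CD200Fc in high glucose (0.30 ± 0.057, adjusted p = 0.000364).

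The spindle assembly checkpoint delays anaphase until every chromosome is attached. Ttk recruits Bub1 to kinetochores, and Bub1b and Mad2l1 form the complex that holds Cdc20 inactive. All 4 genes fell in HG, from *Bub1b*, which fell by 14.4%, to *Mad2l1*, which fell by 22.9%, and 1 rose with CD200Fc in high glucose. *Bub1b* (ENSMUSG00000040084) lies at chr2:118598211-118641591 on the plus strand. Its level was 175, 171 and 172 CPM in HG+CD200Fc libraries, 149.9, 140.4 and 139.5 in HG, 167, 167 and 159.8 in NG+CD200Fc and 167, 164 and 171 in NG. HG lay below all other groups, and HG+CD200Fc was at the top of the NG range or above it. *Bub1b* fell in HG (-0.22 ± 0.052, adjusted p = 0.00196) and rose with CD200Fc (0.27 ± 0.052, adjusted p = 0.000388). *Bub1* (ENSMUSG00000027379) lies at chr2:127801122-127831865 on the minus strand. Its level was 75.5, 64.7 and 72.7 CPM in HG+CD200Fc libraries, 69.2, 76.1 and 69.1 in HG, 84.1, 79.2 and 92.3 in NG+CD200Fc and 86.1, 78.8 and 86.6 in NG. Both high glucose groups overlapped each other and lay below both NG groups. *Bub1* fell in HG (-0.23 ± 0.069, adjusted p = 0.0144), a call lost without either HG replicate 3 or NG replicate 3 (-0.224). With CD200Fc in high glucose *Bub1* differed by -0.01 ± 0.069 (95% interval -0.14 to 0.13), with a sign that turned under other scalings (0.0064 with DESeq2 size factors, 0.0021 with upper quartile scaling). *Mad2l1* (-0.38 ± 0.079) and *Ttk* (-0.28 ± 0.067) fell in HG and did not pass with CD200Fc (0.15 ± 0.079 and 0.05 ± 0.068).

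The kinetochore genes encode the centromeric histone Cenpa, the motor Cenpe, the large matrix protein Cenpf and 3 subunits of the Ndc80 complex, which grips microtubule ends. All 6 fell in HG and 0 passed with CD200Fc in high glucose. *Nuf2* (ENSMUSG00000026683) lies at chr1:169497934-169531464 on the minus strand. Its level was 44.0, 39.9 and 35.2 CPM in HG+CD200Fc libraries, 34.9, 37.8 and 35.1 in HG, 48.7, 48.9 and 49.0 in NG+CD200Fc and 50.9, 47.8 and 47.0 in NG. Both NG groups lay above both high glucose groups, and 1 HG+CD200Fc library, replicate 3, lay inside the range of HG. *Nuf2* fell by 26.0% in HG (-0.43 ± 0.075, adjusted p = 9e-05) and did not pass with CD200Fc (0.15 ± 0.075, adjusted p = 0.204). Its partners *Spc25* (-0.45 ± 0.086, adjusted p = 0.000298) and *Ndc80* (-0.30 ± 0.088, adjusted p = 0.0126) also fell in HG, *Ndc80* with a call lost without NG replicate 1 (-0.263). *Cenpa* fell as well (-0.24 ± 0.061, adjusted p = 0.00387).

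*Cenpe* (-0.18 ± 0.065, adjusted p = 0.0381) and *Cenpf* (-0.18 ± 0.064, adjusted p = 0.0417) passed narrowly in HG, with HG and NG libraries overlapping. Upper quartile scaling ended both calls (-0.152 for *Cenpe* and -0.149 for *Cenpf*), as did the stricter filter (-0.168 and -0.164). *Cenpe* also lost its call without any one of HG replicates 1 and 3 or NG replicates 1 and 2 (-0.187 to -0.155). *Cenpf* lost its call with only the groups compared in the fit (-0.189) and without any one of HG replicates 1 and 3 or NG replicates 2 and 3 (-0.185 to -0.139). With CD200Fc in high glucose the fold changes of the 6 kinetochore genes ran from 0.012 for *Spc25* to 0.18 for *Ndc80*, and that of *Spc25* turned sign with limma voom (-0.00047). At an unadjusted p under 0.05, which 28.4% of all genes met in that comparison, the kinetochore genes *Cenpe* and *Cenpf* would count (adjusted p = 0.0654 and 0.089).

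The chromosomal passenger complex corrects faulty attachments and then moves to the midzone. Aurkb is its kinase, Incenp its scaffold, and Birc5 (survivin) and Cdca8 (borealin) target it to chromosomes. *Birc5* (ENSMUSG00000017716) lies at chr11:117849251-117855743 on the plus strand. Its level was 80.5, 76.5 and 81.3 CPM in HG+CD200Fc libraries, 77.8, 65.8 and 68.9 in HG, 91.1, 84.8 and 92.1 in NG+CD200Fc and 101, 93.6 and 92.8 in NG. HG lay below NG, and HG+CD200Fc overlapped HG and lay below NG+CD200Fc. *Birc5* fell by 26.1% in HG (-0.44 ± 0.064, adjusted p = 1.27e-05) and did not pass with CD200Fc (0.16 ± 0.065, adjusted p = 0.0801). *Cdca8* (ENSMUSG00000028873) lies at chr4:124918465-124939311 on the minus strand. Its level was 93.8, 96.4 and 96.2 CPM in HG+CD200Fc libraries, 77.6, 73.2 and 68.0 in HG, 86.5, 100.2 and 91.3 in NG+CD200Fc and 91.8, 91.6 and 93.7 in NG, with HG below all other libraries. *Cdca8* fell in HG (-0.34 ± 0.062, adjusted p = 0.000179) and rose with CD200Fc in high glucose (0.39 ± 0.062, adjusted p = 4.26e-05). *Incenp* (ENSMUSG00000024660) lies at chr19:9872296-9899551 on the minus strand. Its level was 245, 256 and 252 CPM in HG+CD200Fc libraries, 189, 210.4 and 196 in HG, 224, 236 and 194 in NG+CD200Fc and 206, 215 and 207 in NG. HG and NG overlapped, and all 3 HG+CD200Fc libraries lay above all 9 others. *Incenp* did not pass in HG (-0.08 ± 0.061) and rose with CD200Fc in high glucose (0.34 ± 0.061, adjusted p = 0.000192). *Aurkb* (ENSMUSG00000020897) lies at chr11:69045647-69051664 on the plus strand. Its level was 111, 119 and 116 CPM in HG+CD200Fc libraries, 106, 100.3 and 97.0 in HG, 116, 123 and 114 in NG+CD200Fc and 113, 113 and 114 in NG, with HG below the rest by a small margin. *Aurkb* fell in HG (-0.16 ± 0.056, adjusted p = 0.0336), a call lost with upper quartile scaling (-0.132), with no filter (-0.169) and without any one of HG replicates 2 and 3 or NG replicates 1, 2 and 3 (-0.18 to -0.15). *Aurkb* rose with CD200Fc in high glucose (0.19 ± 0.056, adjusted p = 0.0145), a call lost without any one of HG+CD200Fc replicates 2 and 3 or HG replicate 3 (0.17 to 0.19).

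Of the spindle genes, Plk1 is the kinase that drives mitotic entry, centrosome maturation and cytokinesis, and Aurka with its activator Tpx2 builds the spindle poles. *Plk1* (ENSMUSG00000030867) lies at chr7:122159439-122169873 on the plus strand. Its level was 188, 193 and 193 CPM in HG+CD200Fc libraries, 137, 129.9 and 133 in HG, 165, 181 and 168 in NG+CD200Fc and 165, 179 and 174 in NG. HG libraries were the lowest and HG+CD200Fc libraries the highest, without overlap with any other group. *Plk1* fell by 22.9% in HG (-0.38 ± 0.054, adjusted p = 9.04e-06). *Plk1* was 1.44-fold higher with CD200Fc in high glucose (0.52 ± 0.054, adjusted p = 7.1e-08), the largest increase among the members. *Aurka* (ENSMUSG00000027496) lies at chr2:172356190-172370535 on the minus strand. Its level was 138, 136 and 144 CPM in HG+CD200Fc libraries, 133, 118 and 118 in HG, 139, 143 and 157 in NG+CD200Fc and 163, 151 and 156 in NG. HG lay below all other libraries, and HG+CD200Fc lay wholly below NG. *Aurka* fell in HG (-0.35 ± 0.060, adjusted p = 0.000105). With CD200Fc *Aurka* rose (0.18 ± 0.060, adjusted p = 0.0412), a call lost with no filter (0.173), with only the groups compared in the fit (0.175) and without any one of HG+CD200Fc replicates 1, 2 and 3, HG replicates 2 and 3 or NG replicates 2 and 3 (0.146 to 0.197). *Tpx2* fell in HG (-0.19 ± 0.051, adjusted p = 0.00717) and rose with CD200Fc (0.18 ± 0.051, adjusted p = 0.0158), a rise whose call was lost without any one of HG+CD200Fc replicate 3 or HG replicates 1 and 3 (0.152 to 0.174).

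The motor Kif11 pushes the poles apart, the depolymerase Kif2c frees wrong attachments, and Nusap1 and Hmmr bundle and anchor spindle microtubules. *Hmmr* fell in HG (-0.36 ± 0.062, adjusted p = 8.8e-05) and rose with CD200Fc (0.20 ± 0.062, adjusted p = 0.026), a rise whose call was lost without any one of HG+CD200Fc replicate 1 or HG replicates 2 and 3 (0.134 to 0.2). *Kif11* (-0.29 ± 0.065, adjusted p = 0.00171) and *Kif2c* (-0.25 ± 0.059, adjusted p = 0.00263) fell in HG. Neither passed with CD200Fc (adjusted p = 0.15 for *Kif11* and 0.0744 for *Kif2c*). *Nusap1* passed in neither comparison, at 49.5 ± 3.68 CPM in HG+CD200Fc, 50.8 ± 4.41 in HG, 52.4 ± 3.76 in NG+CD200Fc and 57.0 ± 1.71 in NG (SD, n = 3 each), although its HG libraries all lay below its NG libraries.

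The cytokinesis genes act at the central spindle and the cleavage furrow. All 7 fell in HG, from *Kif23*, which fell by 13.7%, to *Kif20a*, which fell by 25.5%, and 5 rose with CD200Fc in high glucose. Prc1 bundles the midzone microtubules, the motors Kif4 and Kif20a carry Prc1 and the passenger complex there, and Anln links the furrow's actin and septins. Kif23 with Racgap1 forms centralspindlin, which recruits Ect2 to activate RhoA. *Kif20a* (ENSMUSG00000003779) lies at chr18:34624613-34633277 on the plus strand. Its level was 99.0, 91.3 and 98.9 CPM in HG+CD200Fc libraries, 78.8, 77.2 and 76.7 in HG, 99.8, 96.2 and 101 in NG+CD200Fc and 104, 98.7 and 109.7 in NG. HG libraries were close to each other and lay below all others. *Kif20a* fell in HG (-0.43 ± 0.058, adjusted p = 3.86e-06) and rose with CD200Fc (0.31 ± 0.058, adjusted p = 0.00023). *Prc1* (ENSMUSG00000038943) lies at chr7:80294450-80316259 on the plus strand. Its level was 129, 119 and 129 CPM in HG+CD200Fc libraries, 102, 102 and 99.0 in HG, 129, 133 and 131 in NG+CD200Fc and 136, 126 and 128 in NG, again with HG below all others. *Prc1* fell in HG (-0.37 ± 0.054, adjusted p = 1.37e-05) and rose with CD200Fc (0.31 ± 0.055, adjusted p = 0.000117).

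*Racgap1* (ENSMUSG00000023015) lies at chr15:99620496-99651656 on the minus strand. Its level was 201, 199.5 and 203 CPM in HG+CD200Fc libraries, 164, 169.8 and 174 in HG, 202, 207 and 206 in NG+CD200Fc and 208, 206 and 211 in NG. The 3 HG libraries lay well below the other 9, which spanned a narrow range. *Racgap1* fell in HG (-0.30 ± 0.049, adjusted p = 5.25e-05) and rose with CD200Fc (0.25 ± 0.049, adjusted p = 0.000503). *Anln* (ENSMUSG00000036777) lies at chr9:22332012-22389188 on the minus strand. Its level was 265, 252 and 262 CPM in HG+CD200Fc libraries, 213, 222 and 206 in HG, 262, 278 and 280.2 in NG+CD200Fc and 274, 265 and 263 in NG, again lowest in HG without overlap. *Anln* fell in HG (-0.32 ± 0.051, adjusted p = 3.48e-05) and rose with CD200Fc (0.28 ± 0.051, adjusted p = 0.000216). *Kif4* (ENSMUSG00000034311) lies at chrX:100625737-100727214 on the plus strand. Its level was 62.6, 53.7 and 63.4 CPM in HG+CD200Fc libraries, 47.1, 53.3 and 48.3 in HG, 65.1, 70.1 and 64.2 in NG+CD200Fc and 61.9, 66.2 and 60.6 in NG. HG replicate 2 nearly reached HG+CD200Fc replicate 2, and all HG libraries lay below all others. *Kif4* fell in HG (-0.34 ± 0.070, adjusted p = 0.000585) and rose with CD200Fc (0.27 ± 0.070, adjusted p = 0.00621), a rise whose call was lost without HG+CD200Fc replicate 3 (0.234). *Kif23* (-0.21 ± 0.056, adjusted p = 0.00601) and *Ect2* (-0.31 ± 0.084, adjusted p = 0.00719) fell in HG and did not pass with CD200Fc (adjusted p = 0.148 for *Kif23* and 0.143 for *Ect2*).

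Several members share exon bases with a gene on the opposite strand. The shared bases number 1271 for *Kif20a* and *Cdc23*, 911 for *Prc1* and *Rccd1*, 832 for *Kif4* and *Pdzd11*, 623 for *Cdc25c* and *Gm3550*, 592 for *Ube2c* and *Tnnc2* and 510 for *Ccna2* and *Exosc9*. Fewer are shared by *Cdca8* and *9930104L06Rik* (232), *Nusap1* and *Oip5* (172), *Plk1* and *Gm44985* (156), *Cdc25b* and *Spef1* (92) and *Cdc20* and *Elovl1* (53). Counts of these partners over all libraries ran from 10 for *Tnnc2*, beside 43564 for *Ube2c*, to 44137 for *Elovl1*, beside 50213 for *Cdc20*. *Cdc23* held 17825, beside 28885 for *Kif20a*, and *Pdzd11* 8006, beside 18320 for *Kif4*. The labels do not say whether counting used strand, so reads in the shared bases cannot be assigned with certainty. Of the pseudogenes named for members, *Ccnb1-ps* held 1168 counts over all libraries, beside 37871 for *Ccnb1*, and *Ccnb2-ps* 177, beside 26581 for *Ccnb2*, so reads could have been split between them.

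Top2a untangles sister chromosomes, and Mki67 (Ki-67) coats mitotic chromosomes and is the usual marker of cycling cells. *Mki67* (ENSMUSG00000031004) lies at chr7:135689784-135716361 on the minus strand. It had the highest level per length of the members, at 129.5 CPM per kb of exon in HG+CD200Fc, 96.8 in HG, 117 in NG+CD200Fc and 109 in NG. The median over members was 19.9 CPM per kb in HG+CD200Fc, 17.1 in HG, 21.9 in NG+CD200Fc and 22.7 in NG. Library by library *Mki67* stood at 1279, 1327 and 1303 CPM in HG+CD200Fc libraries, 901, 1079 and 942 in HG, 1161, 1275 and 1084 in NG+CD200Fc and 1051, 1152 and 1082 in NG. HG replicate 2 overlapped NG, and the HG+CD200Fc libraries lay above all others, if only just above NG+CD200Fc replicate 2. *Mki67* fell by little in HG (-0.17 ± 0.062, adjusted p = 0.0485), and upper quartile scaling (-0.138) and the stricter filter (-0.153) ended the call, as did a fit without any one of HG+CD200Fc replicate 3, HG replicates 1 and 3 or NG replicates 2 and 3 (-0.195 to -0.133). *Mki67* rose with CD200Fc in high glucose (0.42 ± 0.062, adjusted p = 1.85e-05). *Top2a* fell in HG (-0.16 ± 0.052, adjusted p = 0.0216), a call lost with upper quartile scaling (-0.132) and without either HG replicate 3 or NG replicate 1 (-0.163 to -0.16). With CD200Fc *Top2a* did not pass (0.06 ± 0.052, adjusted p = 0.514).

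NG+CD200Fc was compared with NG to ask what CD200Fc did without high glucose, and no member passed. The count was 0 of 38 members and 0.0% of all genes. At an unadjusted p under 0.05 there was 1 member, *Spc25* (-0.20 ± 0.086, adjusted p = 0.816), and 5.98% of all genes. DESeq2 and limma voom also called 0 members, with 1 and 6 members at an unadjusted p under 0.05, beside 1118 and 2504 of all genes. The members' fold changes ran from -0.20 to 0.10 with a median of -0.013, against -0.00033 over all genes. NG+CD200Fc libraries lay wholly below NG libraries for 3 members (*Cdc25c*, *Birc5* and *Kif2c*), against 6.16% of all genes, and wholly above them for 1 (*Aurkb*), against 5.71%. For *Plk1* the difference was -0.01 ± 0.054 (95% interval -0.12 to 0.09), and for *Cdc20* it was -0.06 ± 0.060 (-0.18 to 0.05).

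Whether the effect of CD200Fc differed between the glucose levels was tested as an interaction, the log2 fold change in high glucose minus that in normal glucose. It passed above 0 for 13 of 38 members and below 0 for 0, where 3.62% of all genes passed above 0 and 3.58% below, and 7.84% above 0 among the 8318 genes at or above the lowest member's mean. The median over members was 0.21, against -0.0082 over all genes. The interaction was largest for *Plk1* (0.54 ± 0.076, adjusted p = 3.72e-05), *Cdc20* (0.53 ± 0.084, adjusted p = 0.000169) and *Ccna2* (0.49 ± 0.084, adjusted p = 0.000399). The others that passed were *Kif20a* (0.39 ± 0.081), *Cdca8* (0.38 ± 0.087), *Ube2c* (0.34 ± 0.081), *Mki67* (0.32 ± 0.088), *Prc1* (0.31 ± 0.077), *Bub1b* (0.29 ± 0.073), *Incenp* (0.28 ± 0.086), *Aurka* (0.28 ± 0.085), *Racgap1* (0.27 ± 0.070) and *Anln* (0.25 ± 0.073). Of these, 4 lost the call under at least 1 alternative. *Anln* did not pass with no filter (0.245) or without any one of HG+CD200Fc replicates 1 and 3, HG replicate 3, NG+CD200Fc replicate 1 or NG replicates 1, 2 and 3 (0.227 to 0.269). *Mki67* did not pass with upper quartile scaling (0.324) or without any one of HG+CD200Fc replicates 2 and 3, HG replicate 3, NG+CD200Fc replicate 1 or NG replicate 2 (0.283 to 0.325). *Incenp* did not pass after stricter filtering (0.27), after scaling to the upper quartile (0.283) or without any one of HG+CD200Fc replicates 2 and 3, HG replicates 1 and 3, NG+CD200Fc replicates 1 and 3 or NG replicates 1, 2 and 3 (0.22 to 0.308), nor *Aurka* without any one of HG+CD200Fc replicates 1, 2 and 3, HG replicates 2 and 3, NG+CD200Fc replicates 1 and 2 or NG replicates 1, 2 and 3 (0.248 to 0.304). Without HG replicate 2 the count was 12, and over all 12 libraries left out in turn it was 9 to 15.

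HG+CD200Fc was also set against NG+CD200Fc, to compare glucose levels under CD200Fc. Members that passed were 4 lower, where 3.65% of all genes were lower, and 2 higher, where 4.65% were higher. The lower ones were *Ccnb2* (-0.23 ± 0.058, adjusted p = 0.015), *Cdk1* (-0.27 ± 0.070, adjusted p = 0.0165), *Bub1* (-0.26 ± 0.069, adjusted p = 0.0179) and *Nuf2* (-0.30 ± 0.074, adjusted p = 0.0141). The higher ones were *Cdc25b* (0.17 ± 0.054, adjusted p = 0.0448) and *Incenp* (0.20 ± 0.061, adjusted p = 0.0414). The median of the members was -0.085, against -0.00055 over all genes. HG+CD200Fc libraries lay wholly below NG+CD200Fc libraries for 12 members, against 14.2% of all genes, and wholly above them for 6, against 13.0%. The count of 6 hung on single libraries, with 0 without NG+CD200Fc replicate 3, 0 without HG+CD200Fc replicate 2, 1 without HG+CD200Fc replicate 3, 3 without NG+CD200Fc replicate 1 and 12 without NG+CD200Fc replicate 2. Where a call was lost in this way the fold changes were -0.238 to -0.199 for *Ccnb2*, -0.251 to -0.21 for *Cdk1*, -0.282 to -0.203 for *Bub1*, -0.301 to -0.22 for *Nuf2*, 0.155 to 0.171 for *Cdc25b* and 0.122 to 0.21 for *Incenp*, the last 2 in 9 and 8 of the 12 fits. With the length and GC trend taken out 3 members were lower and 0 higher, and *Ccnb2* (-0.167), *Cdc25b* (0.0944, or 0.0943 with the replicate block) and *Incenp* (0.112, or 0.114 with the block) lost their calls. *Cdc25b* also lost its call with no filter (0.163) and with only the groups compared in the fit (0.17), and *Incenp* with only the groups compared (0.198).

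Lists of other cell cycle genes, none of them members, varied in how many of their genes passed in HG. Of 85 other mitosis genes 48 were lower and 0 higher in HG (median -0.26, where 12.9% of all genes were lower and their median was 0.021). With CD200Fc in high glucose 25 were higher and 0 lower (median 0.14, where 9.46% of all genes were higher and their median was -0.021). The tubulin gene *Tubb4b* averaged 447 ± 7.44 CPM in HG+CD200Fc, 348 ± 33.3 in HG, 466 ± 8.62 in NG+CD200Fc and 494 ± 11.4 in NG (SD, n = 3 each). *Tubb4b* fell in HG (-0.51 ± 0.056, adjusted p = 1.95e-07), as did *Lmnb1*, for nuclear lamin B1 (-0.48 ± 0.061), *Gtse1*, for a microtubule and p53 regulator (-0.44 ± 0.057), and *Fam83d*, for a spindle protein (-0.53 ± 0.071). With CD200Fc in high glucose all 4 rose on the log2 scale, *Tubb4b* by 0.36 ± 0.056, *Lmnb1* by 0.44 ± 0.061, *Gtse1* by 0.54 ± 0.057 and *Fam83d* by 0.42 ± 0.072. Condensin and cohesin, which compact and hold chromosomes, had 9 of 17 genes lower in HG (median -0.17) and 6 higher with CD200Fc (median 0.096). The cohesin genes *Stag1* (-0.38 ± 0.064) and *Rad21* (-0.25 ± 0.048) and the condensin genes *Smc2* (-0.33 ± 0.060) and *Ncaph* (-0.29 ± 0.062) fell in HG. *Stag1* (0.31 ± 0.064), *Rad21* (0.20 ± 0.048) and *Smc2* (0.20 ± 0.060) rose with CD200Fc, *Smc2* with a call lost without any one of HG+CD200Fc replicates 1 and 3 or HG replicate 3 (0.145 to 0.19).

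Subunits and regulators of the anaphase-promoting complex were lower in 6 of 17 and higher in 1 in HG (median -0.096), where 12.9% of all genes were lower, 25.6% of those at or above the lowest member's mean were lower and 11.7% of all genes were higher, a larger share than the 1 of 17. *Ube2s*, which extends ubiquitin chains (-0.50 ± 0.081), and the subunit genes *Anapc15* (-0.68 ± 0.14), *Anapc5* (-0.18 ± 0.048) and *Anapc16* (-0.30 ± 0.087) fell, the last with a call lost without HG replicate 2 (-0.223). Where a count was 5 or fewer, its genes were named after their values were seen. *Anapc2* was the 1 higher in HG (0.18 ± 0.057), a call lost with the length and GC trend taken out (0.0773) and without any one of HG replicates 1 and 3, NG+CD200Fc replicate 1 or NG replicates 1 and 3 (0.117 to 0.169). The activator gene *Fzr1* was the 1 that rose with CD200Fc in high glucose (0.27 ± 0.055), a smaller share than the 9.46% of all genes that were higher. Of 7 genes for regulators of Cdk1 or of the phosphatases that oppose it, 2 were lower in HG. These were *Wee1* (-0.30 ± 0.077, adjusted p = 0.00414) and *Ppp2r2d* (-0.19 ± 0.064, adjusted p = 0.0332), while *Chek1* (-0.26 ± 0.11) and *Pkmyt1* (0.18 ± 0.088) did not pass. The 2 of 7 is a share near the 25.6% lower among genes at or above the lowest member's mean. With CD200Fc 3 rose, *Wee1* (0.38 ± 0.077), *Ppp2r2d* (0.20 ± 0.064) and *Pkmyt1* (0.32 ± 0.087), and *Ensa* fell (-0.19 ± 0.057). Among all genes 9.46% were higher and 8.3% lower with CD200Fc in high glucose. Among genes at or above the lowest member's mean 20.1% were higher. *Ppp2r2d* lost its call in HG with upper quartile scaling (-0.155), with no filter (-0.193) and without any one of HG replicates 1 and 2 or NG replicates 1 and 3 (-0.19 to -0.176). Its call with CD200Fc was lost with no filter (0.198), with only the groups compared in the fit (0.199) and without any one of HG+CD200Fc replicate 3 or HG replicates 1 and 2 (0.167 to 0.202). *Pkmyt1* lost its call without HG+CD200Fc replicate 2 (0.281), and *Ensa* without any one of HG+CD200Fc replicates 2 and 3 or HG replicate 1 (-0.194 to -0.146).

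The regulators that act on these promoters were lower in 10 of 23 in HG (median -0.20) and higher in 11 with CD200Fc in high glucose (median 0.22). Among all genes 12.9% were lower in HG and 9.46% higher with CD200Fc, and among genes at or above the lowest member's mean 25.6% and 20.1%. *Mybl2*, which encodes B-Myb, averaged 261 ± 23.9 CPM in HG+CD200Fc, 179 ± 11.7 in HG, 230.3 ± 19.8 in NG+CD200Fc and 227 ± 1.60 in NG (SD, n = 3 each). *Mybl2* fell in HG (-0.35 ± 0.067, adjusted p = 0.000369) and rose with CD200Fc (0.54 ± 0.067, adjusted p = 1.31e-06). *Foxm1* averaged 244 ± 10.0 CPM in HG+CD200Fc, 183 ± 7.06 in HG, 199 ± 22.1 in NG+CD200Fc and 188 ± 7.29 in NG (SD, n = 3 each), with all 3 HG+CD200Fc libraries above all 9 others. *Foxm1* did not pass in HG (-0.04 ± 0.064, adjusted p = 0.71) and rose with CD200Fc (0.42 ± 0.064, adjusted p = 2.38e-05). The E2F partner gene *Tfdp1* (-0.32 ± 0.055) and the NF-Y subunit genes *Nfyb* (-0.36 ± 0.086) and *Nfyc* (-0.35 ± 0.079) fell in HG, and *Tfdp1* (0.23 ± 0.055) and *Nfyc* (0.28 ± 0.080) rose with CD200Fc, *Nfyc* with a call lost without any one of HG+CD200Fc replicates 1 and 3 or HG replicate 2 (0.226 to 0.274).

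Among genes of the phases before G2, 5 of 9 G1 genes and 23 of 38 S phase genes were lower in HG and 0 higher, where 12.9% of all genes were lower and 25.6% of those at or above the lowest member's mean. *Ccnd1*, for cyclin D1, averaged 228 ± 16.0 CPM in HG+CD200Fc, 154 ± 7.80 in HG, 250.4 ± 25.4 in NG+CD200Fc and 248 ± 13.6 in NG (SD, n = 3 each). The G1 cyclin and kinase genes that fell in HG (median of the 9, -0.31) were *Ccnd1* (-0.69 ± 0.067, adjusted p = 2.73e-08), *Ccnd2* (-0.44 ± 0.050), the phosphatase gene *Cdc25a* (-0.36 ± 0.061), *Ccne1* (-0.31 ± 0.075) and *Cdk6* (-0.18 ± 0.058). *Cdk6*, named after its value was seen, lost that call with upper quartile scaling (-0.147) and without either HG replicate 1 or NG replicate 2 (-0.142 to -0.141). With CD200Fc in high glucose 4 rose, *Ccnd1* (0.56 ± 0.067), *Ccnd2* (0.42 ± 0.050), *Cdc25a* (0.39 ± 0.061) and *Cdk6* (0.31 ± 0.058). The median of the S phase genes was -0.25 in HG, and with CD200Fc 16 of 38 were higher (median 0.15), where 9.46% of all genes were higher and 20.1% of those at or above the lowest member's mean. Among them the helicase subunit gene *Mcm5* (-0.47 ± 0.055), the nucleotide synthesis gene *Tyms* (-0.43 ± 0.059) and the sliding clamp gene *Pcna* (-0.50 ± 0.064) fell in HG. *Mcm5* (0.40 ± 0.055) and *Tyms* (0.20 ± 0.060) rose with CD200Fc, *Tyms* with a call lost without any one of HG+CD200Fc replicates 1 and 3 or HG replicates 2 and 3 (0.168 to 0.185). *Pcna* did not pass with CD200Fc in high glucose (0.03 ± 0.065, adjusted p = 0.806).

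Of the 7 genes of Cdk inhibitors 2 were lower and 1 higher in HG. Among all genes 12.9% were lower and 11.7% higher, and 25.6% were lower among those at or above the lowest member's mean. The counts for so few genes are close to the last 2 shares. *Cdkn1a*, for p21, a p53 target that restrains Cdk2, averaged 238 ± 4.28 CPM in HG+CD200Fc, 206 ± 14.6 in HG, 247 ± 10.4 in NG+CD200Fc and 264 ± 2.98 in NG (SD, n = 3 each). *Cdkn1a* fell in HG (-0.36 ± 0.055, adjusted p = 1.7e-05) and rose with CD200Fc (0.21 ± 0.055, adjusted p = 0.00661), and *Cdkn2c* fell in HG (-0.33 ± 0.084). *Cdkn1c*, for p57, rose in HG (1.38 ± 0.30, adjusted p = 0.00103) and fell with CD200Fc (-1.27 ± 0.30, adjusted p = 0.00279), at a level of at most 3.3 CPM in any library. *Cdkn1b*, for p27, passed in neither comparison (adjusted p = 0.303 in HG and 0.0897 with CD200Fc). Of 15 p53 targets 6 fell in HG (median -0.21), where 12.9% of all genes and 25.6% of those at or above the lowest member's mean were lower. Among the 6 were *Aen* (-0.63 ± 0.065), *Phlda3* (-0.45 ± 0.063), *Mdm2* (-0.25 ± 0.051) and *Plk2* (-0.21 ± 0.046). Another 2 rose, *Sesn2* (0.22 ± 0.060) and *Trp53inp1* (0.52 ± 0.14), a share near the 11.7% of all genes that were higher. The call of *Sesn2* was lost with the length and GC trend taken out (0.111) and without either HG replicate 3 or NG replicate 1 (0.163 to 0.194), and that of *Trp53inp1* without NG replicate 1 (0.438). With CD200Fc in high glucose 5 of the 15 rose, *Aen* (0.54 ± 0.066), *Phlda3* (0.29 ± 0.064), *Mdm2* (0.25 ± 0.051), *Zmat3* (0.41 ± 0.060) and *Bbc3* (0.27 ± 0.083). There 9.46% of all genes were higher, and 20.1% of those at or above the lowest member's mean. Only *Trp53inp1* fell (-0.59 ± 0.15), a share near the 8.3% of all genes that were lower. *Bbc3* lost its call with limma voom (0.178), with the trend taken out (0.153) and without any one of HG+CD200Fc replicates 1 and 2 or HG replicate 2 (0.208 to 0.235), and *Trp53inp1* without HG+CD200Fc replicate 3 (-0.437). With CD200Fc in normal glucose 0.0% of all genes passed, and so 0 genes of these lists.

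**Figure D5:**
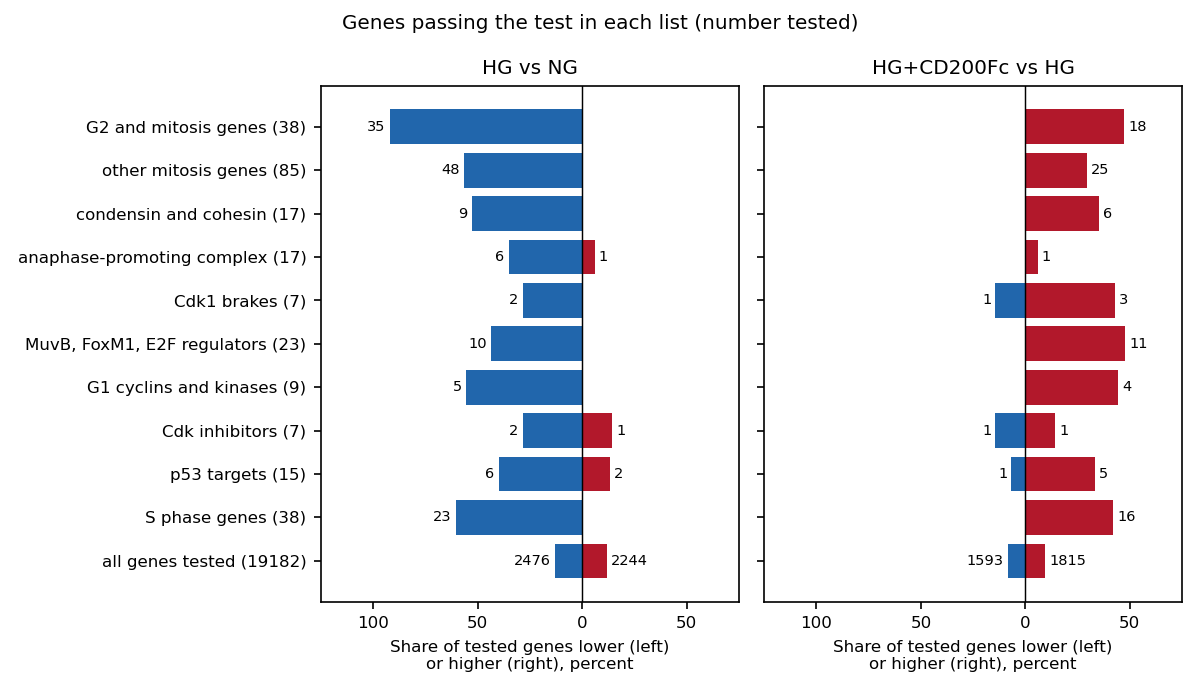
Share of tested genes (percent) in each list that were lower (bars to the left) or higher (bars to the right) at an adjusted p under 0.05, in HG against NG (left panel) and HG+CD200Fc against HG (right panel), with the number of genes at each bar and the number tested in parentheses. The 38 members had the largest share lower in HG of the lists shown, with 35 genes, and 18 were higher with CD200Fc. The list labelled Cdk1 brakes holds regulators of Cdk1 or of the phosphatases that oppose it, and not all of them hold Cdk1 back.

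The authors' deposited table of comparisons, which holds all 38 members among 15372 genes, was set beside these calls. At a false discovery rate under 0.05, the authors' deposited table has 30 members lower and 0 higher in HG against NG, where 15.9% of its genes were lower, and all 30 are among the 35 called here. For HG+CD200Fc against HG the authors' deposited table has 16 members higher and 0 lower, where 11.5% of its genes were higher and 11.1% lower, and all 16 are among the 18 called here. For NG+CD200Fc against NG the authors' deposited table has 0 members, where 0.0% of its genes passed. The authors' deposited table also sets HG+CD200Fc against NG, with 10 members lower and 3 higher, where 13.2% of its genes were lower and 12.8% higher.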

How the data were processed

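RNA from 12 BV2 libraries was depleted of ribosomal RNA with RNase H, primed with random hexamers and sequenced in paired ends, per the labels' protocols. The authors deposited a table of whole-number read counts per gene, and a table of log2 fold changes, p-values and false discovery rates from their own comparisons, which was used as deposited. The submitters' processing notes name bcl2fastq, STAR, Salmon, Subread featureCounts, edgeR, limma and the build GRCm38, with no role or order, and the annotation release and strand setting are not stated there. The count table had 55774 lines, and the 287 that repeated an identifier, with identical counts, were dropped.

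Counts were fitted for all 4 groups together with edgeR 4.0.16 in R 4.3.3 (TMM scaling, filterByExpr, robust quasi-likelihood F test, Benjamini-Hochberg adjustment over 19182 genes, call at 0.05), as were the contrasts and the interaction. The biological coefficient of variation was 0.0908. CPM values are TMM scaled, except those of cell type markers and ribosomal RNA. An error given after a log2 fold change is a standard error worked back from the fold change and the F statistic of its test. The 95% intervals use the normal distribution, so they are somewhat narrower than the F test would give. The depth of 2.15e+07 to 3.19e+07 counts per library limits precision only for the lowest members, and counting error covers counting alone. Alternatives were DESeq2 1.42.0, limma 3.58.1 voom, other scalings and filters, fits to only the groups compared, removal of an exon length and GC trend, a replicate block and leaving out each library.

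Replicate numbers run from 1 to 3 in each group, and the labels do not say whether they mark pairs or batches. Deviations of same-numbered libraries correlated at a median of 0.0322 (-0.0694 to 0.184). For libraries of other groups with another number the median was -0.0169 (-0.207 to 0.244). The numbers were not taken as pairs in the main fit, though a shared batch is not excluded. Replicates differed by more than counting noise (chi-square per degree of freedom of 3.63 to 36.2). The highest values, 36.2 and 25.4, were of pairs that include HG replicate 2. The next was 13.2, for NG+CD200Fc replicates 2 and 3.

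The members and all gene lists were chosen with earlier results of these data known. Values in all libraries are given for the 12 members with the smallest p in HG against NG and up to 8 called in another contrast, and further members were added after their values were seen (*Aurka* and *Cdc25b*). Of each other list the 4 genes with the smallest p in HG against NG are named, with *Foxm1*, *Mybl2*, *Cdkn1a* and *Cdkn1b*, except for a result that is not reported here.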

Additional observations from a re-analysis of the deposited data

Results flagged for a closer look

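The log2 fold change of CD200Fc in high glucose differed from that in normal glucose by the interaction test in edgeR (adjusted p under 0.05, 3 libraries per group) for 13 of 38 members. The difference, in high glucose minus in normal glucose, was 0.54 for *Plk1*, 0.525 for *Cdc20*, 0.49 for *Ccna2*, 0.39 for *Kif20a*, 0.38 for *Cdca8*, 0.34 for *Ube2c*, 0.32 for *Mki67*, 0.31 for *Prc1*, 0.29 for *Bub1b*, 0.28 for *Incenp*, 0.28 for *Aurka*, 0.27 for *Racgap1* and 0.25 for *Anln*. Outside the module 14 of 85 other mitosis genes and 10 of 38 S phase genes also passed above 0, as did 3.62% of all genes. Of 4 genes chosen by name from the lists of regulators and Cdk inhibitors, *Foxm1*, *Mybl2*, *Cdkn1a* and *Cdkn1b*, the last did not pass. The difference was 0.52 for *Mybl2*, 0.33 for *Foxm1* and 0.31 for *Cdkn1a*. That of *Foxm1* did not pass without any one of HG+CD200Fc replicate 3, NG+CD200Fc replicate 1 or NG replicates 2 and 3 (0.311 to 0.329).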

How the results depend on the processing

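The direction of the median member held under all 22 alternatives in HG against NG (-0.34 to -0.29) and in HG+CD200Fc against HG (0.16 to 0.23), and the counts of members called ran from 29 to 37 and from 13 to 25. The interaction was called for 9 to 18 members under 21 alternatives, and NG+CD200Fc against NG for 0 members, with at most 21 of all genes (no filter). Of the members called, 28 of 35, 12 of 18 and 9 of 13 kept their call under every alternative run in HG against NG, in HG+CD200Fc against HG and in the interaction, and 0 of 6 in HG+CD200Fc against NG+CD200Fc. That last count was 12 with limma voom, 12 with the replicate block, 3 with the exon length and GC trend taken out and 0 to 12 with single libraries left out. The labels do not say whether replicate numbers mark pairs or batches. With the replicate block the other counts were 35 in HG against NG, 21 in HG+CD200Fc against HG, 0 in NG+CD200Fc against NG and 16 for the interaction. Values near 0 changed sign, and the cause was not tested. *Cdc25b* in HG against NG came to -0.0071 with the trend out and -0.0072 with trend and block. In HG+CD200Fc against HG, *Bub1* came to 0.0064 with DESeq2 size factors, 0.0021 with upper quartile scaling, 0.0065 with DESeq2, 0.018 with limma voom, 0.058 with the trend out, 0.056 with trend and block, and -0.056 to 0.054 with single libraries left out. There *Spc25* came to -0.00047 with limma voom and -0.038 to 0.109 with single libraries left out, and *Nusap1* to 0.040 with the trend out, 0.041 with trend and block and -0.096 to 0.027 with single libraries left out. The interaction of *Bub1* came to 0.014 with limma voom, 0.049 with the trend out, 0.048 with trend and block and -0.077 to 0.046 with single libraries left out. With DESeq2 size factors or upper quartile scaling the median over all genes was between -0.00869 and 0.0504 in each contrast. Counting error was 6.14% at the lowest member count in a library, and all results come from 1 cell line with 3 libraries per group.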
